A study of Mus musculus with 8 samples.

Results

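The clustered protocadherins are cell adhesion proteins encoded by a tandem array of genes on mouse chromosome 18. Their members were taken as the rows of the deposited RNA-seq table on that chromosome whose names begin with Pcdha, Pcdhb or Pcdhg and a further letter or digit. This gave 39 of the 19429 rows, of which 6 belong to the alpha cluster, 12 to the beta cluster and 21 to the gamma cluster. All 39 are annotated as protein coding on the plus strand. In GRCm38 the alpha rows run from position 36930184 to 37187661, the beta rows from 37264938 to 37524479 and the gamma rows from 37661793 to 37841873. The mouse GENCODE vM21 annotation of GRCm38 holds 58 genes under the same rule, of which 14 are alpha, 22 beta and 22 gamma genes, and the 19 that are not among the rows were not analysed here.

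RNA-seq was performed on LF2 mouse embryonic stem cells in which both copies of Tet1, a gene for an enzyme that oxidises 5-methylcytosine, carried a C-terminal FLAG tag. The WT group comprised lines 2 and 5 with wild-type TET1, and the D2018A group comprised lines 7 and 8, in which an aspartate of TET1 was changed to alanine to weaken its binding to the O-GlcNAc transferase OGT. Each clonal line was cultured in medium with LIF and 10% FBS and sequenced as 2 technical replicates, so 8 samples represent 2 independent lines per genotype. Both groups carry the tag, followed by sequence for a separately translated fluorescent protein, and each line is a single clone. According to the paper, WT cells also carry a large deletion that D2018A cells lack. The values analysed here are means over all libraries of the authors' fit, so they have no standard deviation and no number of replicates. The fit behaved as a mean over 4 more libraries than these 8 samples. The line, genotype and culture of the additional libraries are not known. Every level and share may therefore include material other than the lines described. The difference between WT and D2018A was not analysed here.

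Each alpha or gamma gene has its own promoter and its own large first exon, which is spliced to constant exons that its whole cluster shares. Each beta gene is in essence a single large exon with its own promoter and no constant exon. Individual neurons switch on a few of these promoters and thereby acquire a surface identity, and the C-type genes at the end of the alpha and gamma clusters are regulated separately from the rest. Promoter choice is known to involve DNA methylation laid down by DNMT3B, binding of CTCF and looping by cohesin, and repression by SMCHD1. The embryonic stem cells measured here represent a stage before neurons form.

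Gamma transcripts made up nearly all of the clustered protocadherin signal. The gamma genes summed to a mean normalised count of 1388, the alpha genes to 3.70 and the beta genes to 4.49. Gamma therefore held 99.4% of the total (95% exact binomial interval 99.3 to 99.5%), alpha 0.265% (0.191 to 0.352%) and beta 0.322% (0.242 to 0.420%). The intervals treat 12 times the summed mean as the number of reads and cover counting error only. The levels did not overlap, since the lowest gamma gene had a mean 4.99 times that of the highest alpha or beta gene. Of 21 gamma genes, 19 had a mean normalised count of at least 10, against 0 of the 18 alpha and beta genes. The same minimum was met by 66.3% of all rows. These shares are given as a description, without a test.

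**Figure D1:**
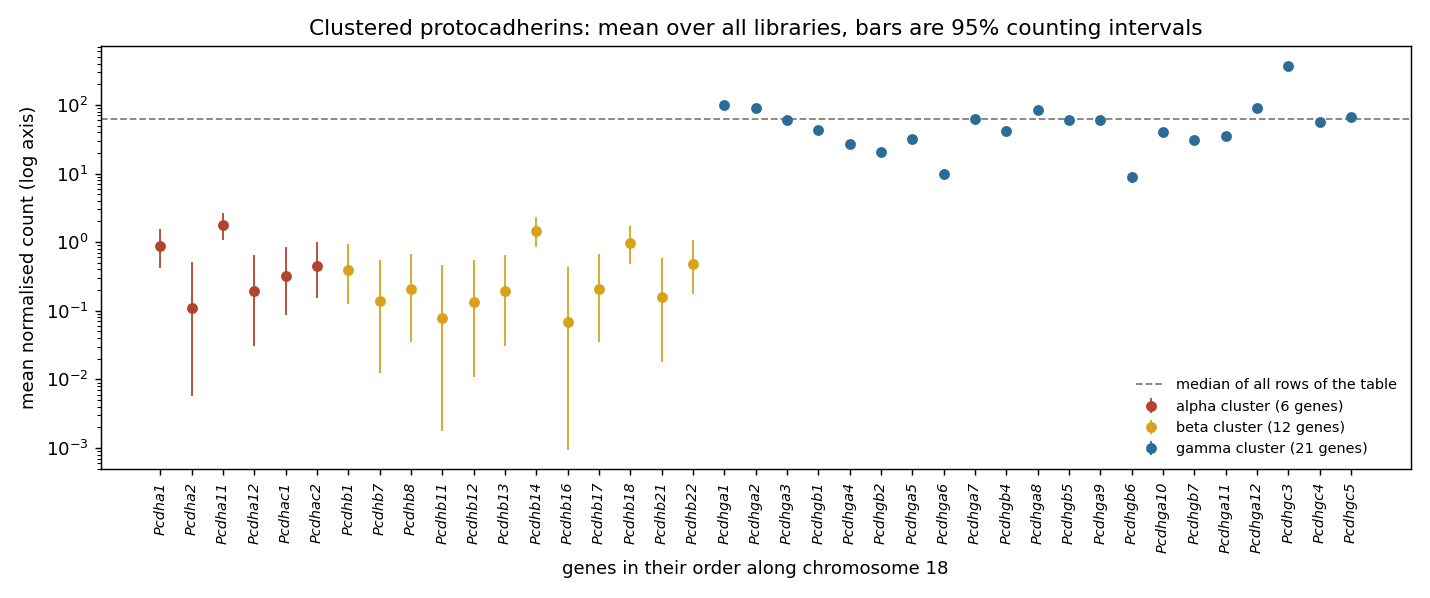
Mean normalised count of each of the 39 genes on a log axis, in chromosomal order, with bars for the 95% Poisson counting interval and a dashed line at the median of all 19429 rows (63.2). All 6 alpha and 12 beta genes lie below 2, and all 21 gamma genes lie above 8.

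The separation was wider when length was taken into account. Levels were divided by the exon sequence of each gene that no other gene on the same strand covers, because a read in a constant exon cannot be assigned to a single gene. The median level per kb of unshared exon was 16.3 in gamma, 0.138 in alpha and 0.0489 in beta, on the scale of mean normalised counts. The gamma median was 118 times the alpha median and 334 times the beta median. These medians cover 21 of 22 annotated gamma genes but only 6 of 14 alpha and 12 of 22 beta genes, the others not being rows analysed here. The lowest gamma gene per kb stood 8.97 times above the highest alpha or beta gene. Over all rows the median was 17.4 per kb, and 7 of the 39 members, all of them gamma genes, lay above it. In total the family accounted for 0.0128% of the summed means of the table.

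Among gamma genes, Pcdhgc3 was the most abundant. Pcdhgc3, a C-type gene whose first exon lies close to the constant exons, had a mean normalised count of 368 (95% counting interval 357 to 379). It held 26.5% of the gamma sum and reached the 73.8th percentile of all rows. Its level per kb, 108.7, was 3.13 times that of the next gene. The other gamma C-type genes stood far below it. Pcdhgc4 had a mean of 56.7 (52.5 to 61.1) and 16.3 per kb. Pcdhgc5 had a mean of 66.9 (62.3 to 71.7) and 14.5 per kb. Both fell within the range of the A-type and B-type genes. Antisense exons are annotated over 1559 of the 3380 unshared bases of Pcdhgc3, and their part in its value was not tested. Such exons cover some unshared bases of 11 of the 39 members.

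The gamma A-type genes, which form the larger subfamily of variable exons, were led by Pcdhga1. Its mean normalised count was 100.6 (94.99 to 106.4). Pcdhga12 followed at 91.1 (85.7 to 96.6), and Pcdhga2 at 89.3 (84.1 to 94.9). The counting intervals of Pcdhga1 and Pcdhga12 overlapped, as did those of Pcdhga12 and Pcdhga2, so this order is not resolved. At the other end, Pcdhga6 had a mean of 9.83 (8.14 to 11.8) and Pcdhga4 of 26.7 (23.9 to 29.8). The remaining 7 A-type genes lay between 32.3 and 85.3. Per kb, the 12 A-type genes ranged from 3.76 for Pcdhga6 to 34.7 for Pcdhga2, with a median of 18.6.

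The gamma B-type genes are interspersed among the A-type genes. Their highest means were 59.8 (55.5 to 64.3) for Pcdhgb5, 43.3 (39.6 to 47.2) for Pcdhgb1 and 41.3 (37.7 to 45.1) for Pcdhgb4. Their lowest were 8.75 (7.15 to 10.6) for Pcdhgb6 and 20.8 (18.3 to 23.5) for Pcdhgb2. Pcdhgb6 was the lowest gamma gene, and its interval overlapped that of Pcdhga6. The median level of the 6 B-type genes was 11.7 per kb, and the A-type median was 1.59 times that value. Of the 12 A-type genes, 8 lay above the highest B-type gene per kb (16.5, Pcdhgb1), and Pcdhga6 lay near the lowest. Shared sequence differed between the subfamilies in the same comparison. The share of 50-base stretches of the first exon that also occur in a gene elsewhere had a median of 11.8% in B-type and 0.295% in A-type genes, and its part in the lower B-type values was not tested.

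**Figure D2:**
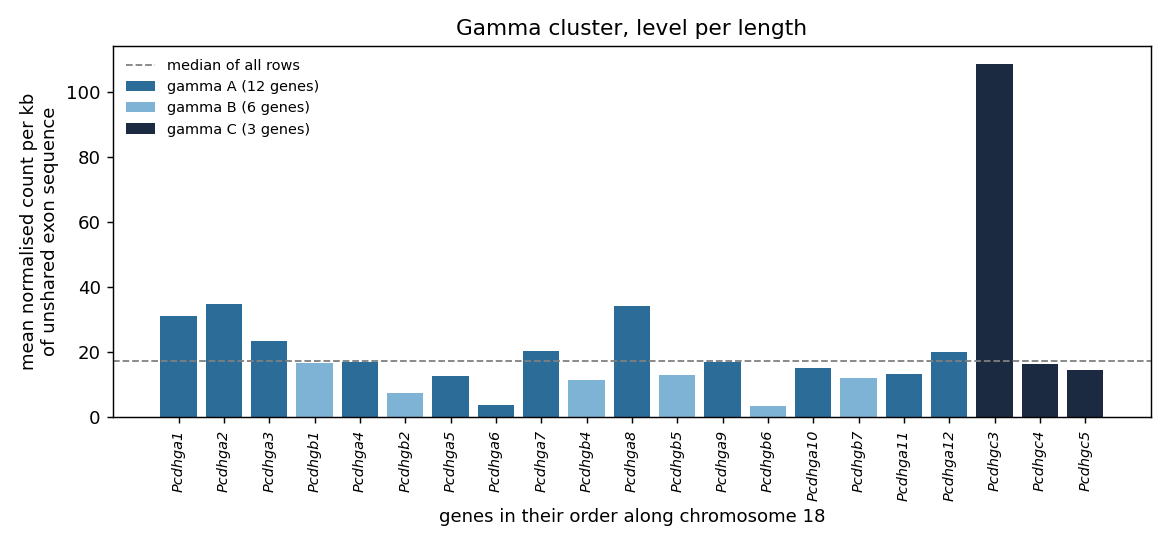
Mean normalised count per kb of unshared exon for the 21 gamma genes in chromosomal order, coloured by A, B and C type, with a dashed line at the median of all rows (17.4 per kb). Pcdhgc3 reaches 108.7, the other bars run from 3.41 to 34.7, and Pcdhga6 and Pcdhgb6 are the shortest.

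Position along the cluster and level per kb had a weak negative correlation, given without a test. Over the 18 A-type and B-type genes, log2 level per kb and order along the chromosome had a Pearson r of -0.29 and a Spearman rho of -0.34. These are descriptions across genes, which share libraries and are not independent. Pcdhga1, Pcdhga2 and Pcdhga3, the 3 genes farthest from the constant exons, all lay above the median of these 18 genes. Pcdhga12, of the 18 the nearest to those exons, also lay above it, at 20.0 per kb. The order of all 21 gamma means contains 20 neighbouring pairs, and 15 of them had overlapping counting intervals. Most neighbouring ranks are therefore not resolved, whereas the 10.2-fold range per kb from the lowest to the highest of the 18 genes exceeds counting error.

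Alpha genes were close to the limit of what the libraries could record. Pcdha11 had a mean normalised count of 1.75 (95% counting interval 1.08 to 2.68), the highest of the 18 alpha and beta genes. Pcdha1 followed at 0.869 (0.425 to 1.58). The lowest were Pcdha2 at 0.109 (0.00572 to 0.508) and Pcdha12 at 0.197 (0.0303 to 0.649). Both alpha C-type genes were also low. Pcdhac1 had a mean of 0.326 (0.0871 to 0.843) and Pcdhac2 of 0.449 (0.154 to 1.02). Among the alpha rows, Pcdha11 and Pcdha1 had higher means than both C-type genes, but the counting interval of Pcdha1 overlapped those of both. Only 4 of the 12 alpha genes that are not C-type had a row, so the C-type genes cannot be ranked in the whole cluster. The Pcdha11 value is uncertain, because 18.4% of the 50-base stretches of its first exon recur in a gene elsewhere and antisense exons are annotated over 3338 of its 4606 unshared bases.

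Beta genes were also close to that limit. Among genes with a row, 12 of 22 beta and 6 of 14 alpha, the beta median per kb (0.0489) was below the alpha median (0.138). The annotated genes without a row could change this order. Beta held a larger share of the summed means than alpha (0.322% against 0.265%), but a smaller one with means per unshared exon length (0.201% against 0.252%). Pcdhb14 had a mean of 1.46 (0.860 to 2.32), Pcdhb18 of 0.956 (0.486 to 1.69) and Pcdhb22 of 0.482 (0.173 to 1.06). The lowest were Pcdhb16 at 0.0696 and Pcdhb11 at 0.0797, each of which is a single read in a single library. The counting intervals of most alpha and beta genes overlapped, so no order within these clusters is drawn beyond the values. All 12 beta genes lay at or below the 19.4th percentile of the table, and all 6 alpha genes at or below the 20.6th.

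The smallest means of the table can be traced to whole reads. A gene with 1 read in 1 library has a mean set by that library's size factor, and 12 such steps were each shared by between 38 and 123 rows. The fit thus behaved as a mean over 12 libraries, 4 more than the 8 samples described, with relative depths from 0.726 to 1.47. The libraries are numbered here from the deepest to the shallowest and cannot be assigned to a line or genotype. All 16 members with a mean under 1 could be written in exactly 1 way as whole reads of these steps, within 2e-09 of the mean. They held 59 reads in all, from 1 to 12 per gene with a median of 3.

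Among these 16 genes, most with at least 2 reads had them all in a single library. The reads of Pcdha11 (mean 1.75) and Pcdhb14 (mean 1.46), the highest alpha and beta gene, were not placed in libraries. They enter none of the counts that follow and could change which libraries hold most reads and from which cluster. Of the 16 genes, 3 had 1 read each. Of the other 13, 10 (76.9%) had all of their reads in 1 library, whereas 43.9% of the 2586 rows with at least 2 reads and a mean under 1 did so. This comparison is given without a test. Copies of a fragment made by PCR cannot be told apart from separate fragments in these values.

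In each of the 3 libraries with most of the resolved reads, those reads came from a single cluster. The genes named here were chosen after their values were seen. Library 6 held all 12 reads of Pcdhb18, all 5 of Pcdhb1, both reads of Pcdhb21 and the single read of Pcdhb11, a total of 20. Library 11 held 12 reads, with all 8 of Pcdha1, all 3 of Pcdhac1 and the single read of Pcdha2. Library 4 held 9 reads, with 3 each of Pcdhb8 and Pcdhb17, 2 of Pcdhb7 and 1 of Pcdhb16. These 3 libraries together contained 41 of the 59 reads (69.5%), from 11 of the 16 genes. Their relative depths were 1.05, 0.767 and 1.197, so they were not the deepest.

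The remaining 18 reads were more scattered. Library 2 held 3 reads each of Pcdha12 and Pcdhb13 and 1 of Pcdhb12, whose other read was in library 3. Pcdhac2 had 3 reads in library 8 and 1 each in libraries 9 and 10. Pcdhb22 had 4 reads in library 10 and 1 in library 1. Libraries 5, 7 and 12 held no read of these genes. Among these 16 genes, alpha reads came from 5 libraries and beta reads from 6, and 2 libraries held both.

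**Figure D3:**
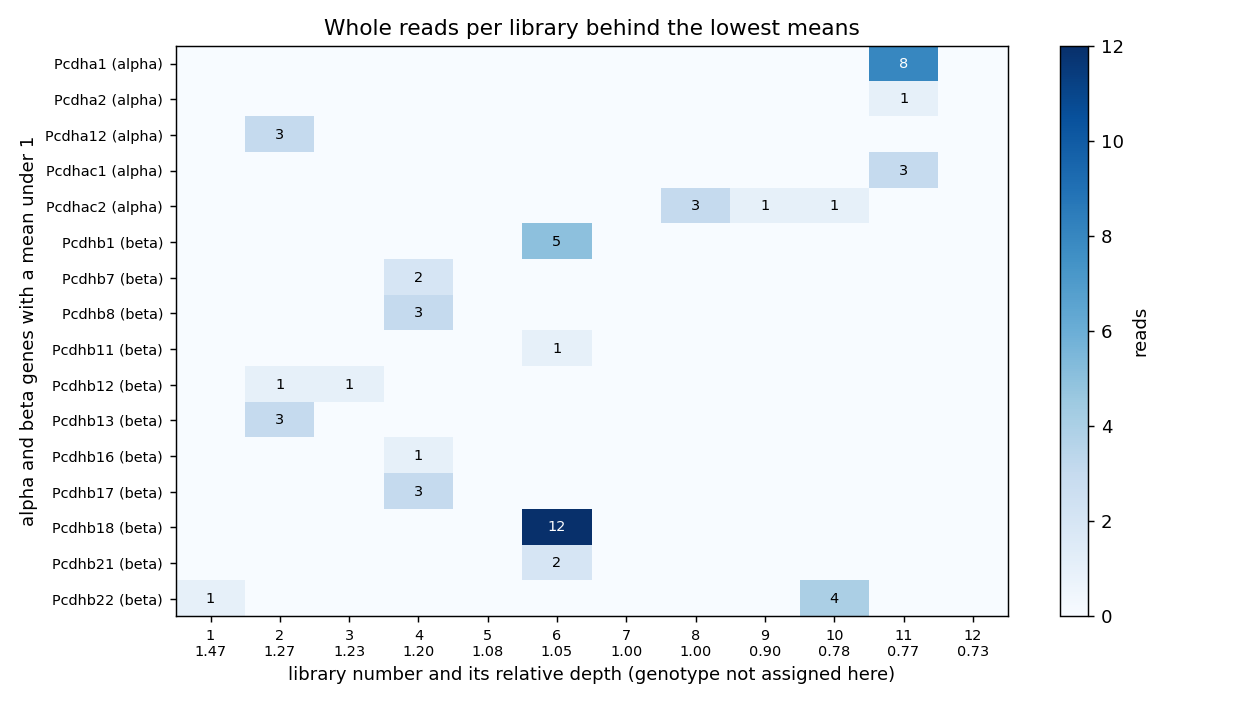
Whole reads per library for the 16 alpha and beta genes with a mean under 1; columns are the 12 libraries with their relative depth below the number, and the printed figure and shade give the reads. Of the 13 genes with at least 2 reads, 10 occupy a single column, and libraries 4, 6 and 11 hold 41 of the 59 reads.

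The sequence at the start of each gene differed between clusters in a way that followed the levels only in part. The CpG observed to expected ratio, which falls where methylated CpG has been lost over evolution, was taken over the first 500 bases of the first annotated exon. Its median was 0.702 in alpha, 0.632 in gamma and 0.341 in beta, against 0.759 over 16541 rows of the table. The cluster medians leave out the 19 annotated genes without a row. Among genes with a row, beta thus had the lowest median of both ratio and level per kb. Alpha exceeded gamma in ratio but not in level. All 6 alpha genes lay between 0.653 and 0.783, and 7 of 21 gamma genes lay in that same interval while the gamma range was 0.264 to 0.947. Alpha and gamma genes of similar ratio thus differed widely in level. Of the 12 beta genes, 11 lay below the lowest alpha ratio, and the exception was Pcdhb1 at 0.665. Among gamma genes, Pcdhgc5 had the lowest ratio, 0.264, and a level of 14.5 per kb. Over the 18 gamma A-type and B-type genes, the ratio and log2 level per kb had a Pearson r of -0.11 and a Spearman rho of -0.25, given as a description across genes that share libraries. The window lies in transcribed sequence and is not a measure of methylation in these cells.

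**Figure D4:**
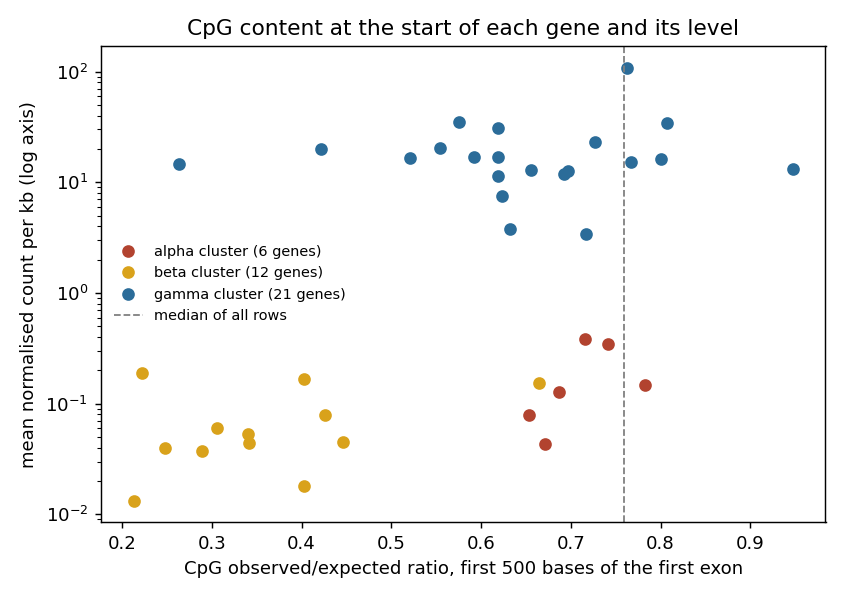
Mean normalised count per kb (log axis) against the CpG observed to expected ratio of the first 500 bases of the first exon, 1 point per gene, with a dashed line at the median of all rows (0.759). Alpha and gamma points share the upper part of the ratio axis but not the level axis, and beta points lie mostly at ratios below 0.45.

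Most genes that flank or lie between the clusters had higher levels than the alpha and beta genes. Of 14 listed neighbours, all had a row, and 13 had a mean normalised count of at least 10. Per kb their median was 82.9. Of these, 4 are named for their position, a choice made after their values were seen. Zmat2, upstream of the alpha cluster, had a mean of 634, and Diaph1, downstream of the gamma cluster, of 2867. Taf7, a gene for a transcription initiation factor subunit that lies between beta and gamma, had a mean of 273. Its neighbour Slc25a2, a mitochondrial carrier gene in the same interval, had a mean of 2.05. The long noncoding RNA 4930517L18Rik, also between beta and gamma, had a mean of 0.170, within the range of the alpha and beta genes. The members went from means under 2 to means above 8 across this interval. The long noncoding RNA 3222401L13Rik, also named after its value was seen, ends 51 bases before the annotated start of Pcdhga1 on the same strand and had a mean of 35.5. The 5 antisense RNA rows within the cluster spans had means of 0.0676 to 0.560.

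Genes for the proteins known to act at these promoters were all expressed. All 24 listed regulators had a row and a mean of at least 10, from 286 for the cohesin subunit gene Smc3 to 25297 for the corepressor gene Trim28. Per kb their median was 218. In list order, Ctcf, which encodes the factor that binds the variable promoters, had a mean of 998. The cohesin genes Rad21, Smc1a, Stag1 and Stag2 had means of 5092, 931, 998 and 338. Levels of transcripts of regulators were not related to levels of the members by any test.

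Other protocadherins and cadherins gave a range of levels on either side of the gamma genes. Of 12 nonclustered protocadherins, which are single genes outside the clusters, 9 had a row and 2 had a mean of at least 10. Pcdh1 and Pcdh12 lie downstream of the gamma cluster on chromosome 18, starting at positions 38185914 and 38267092. Pcdh1 had a mean of 94.5 and a level of 10.7 per kb. Pcdh8 and Pcdh10 had means of 7.00 and 2.02, and Pcdh9, Pcdh12 and Pcdh15 had means under 1. Their median of 0.127 per kb was near that of alpha genes (0.138) and far below that of gamma genes (16.3). Of the 8 classical cadherins, 5 had a mean of at least 10. Cdh1, the E-cadherin of epithelia and stem cell colonies, had a mean of 5904 and a level of 1291 per kb. Cdh2, the N-cadherin of neural tissue, had a mean of 106 and a level of 13.2 per kb, within the gamma range.

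**Figure D5:**
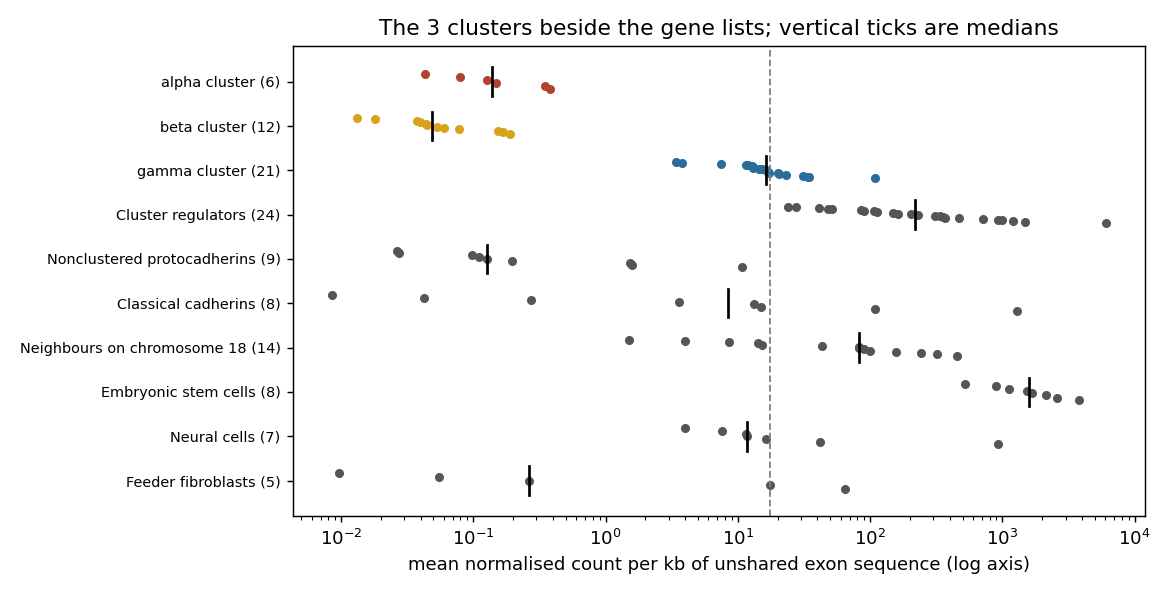
Mean normalised count per kb of unshared exon (log axis) for the genes of the 3 clusters and of 7 gene lists, 1 point per gene, with a tick at each median and a dashed line at the median of all rows (17.4). The gamma points lie around the dashed line, whereas alpha, beta and most nonclustered protocadherin points lie below 1 per kb.

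The means over all libraries included the markers of the stem cell label, and part of the neural list was also present. All 8 embryonic stem cell markers had means from 977 to 23079. Pou5f1, Nanog and Sox2 had means of 2011, 5767 and 3142. Of the 8 neural markers, 7 had a row, with means from 23.1 to 1736. Tubb3, which encodes a neuronal tubulin, was the highest and Rbfox3, a marker of mature neurons, the lowest. Dcx had no row that was analysed here. Of the 8 fibroblast markers, 5 had a row and 3 of those had means under 1, including Col1a2 (0.689) and Col3a1 (0.0930). Col1a1 and Thy1 had means of 115 and 194. In bulk RNA, fewer expressing cells and less RNA per cell cannot be told apart, and the part of cells other than stem cells in the gamma values was not tested.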

How the data were processed

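RNA was depleted of ribosomal RNA, and libraries made with the Lexogen SENSE total RNA kit were sequenced as single-end reads of 50 bases. According to the submitters' processing notes and the methods, reads were aligned and counted per gene with STAR 2.5.3a on GRCm38.p6 and normalised with DESeq2 1.20.0. The signal used here is the authors' deposited mean of counts, each divided by its library's size factor, over all libraries of their fit. The table's 5 further columns of the authors' own comparison (fold change, standard error, statistic, p-value and adjusted p-value) were not used. The planned count model needs counts per library and was not run. Whether counting used strand is not given in the sources used here.

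Members were matched by identifier to GENCODE vM21, where all 39 had the same start and end. Exon lengths, shared 50-base stretches and CpG ratios (first 500 bases) came from that annotation and its transcripts. Single-read steps were values shared by at least 30 rows that were not sums of lower steps, and this search was tested on simulated data. Counting intervals of 95% were Poisson limits that took 12 times the mean as the number of reads. This product need not equal the whole reads of a gene. The limits also do not cover the gathering of reads in single libraries. Depth per library is known only as relative depth. Named genes were the C-type genes, the 3 highest and 2 lowest means of alpha, beta, gamma A and gamma B, and list genes. List genes came mostly from the start of each list. Those given as the ends of a range, such as Trim28 and Rbfox3, were named for their values. The members and lists were chosen with earlier results of these data known. Analyses used Python 3.11.15, pandas 2.3.3 and scipy 1.17.1.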

Additional observations from a re-analysis of the deposited data

How the results depend on the processing

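Over 6 results, 18 alternatives were run, and 13 stayed within the limits set for them, which were 1.5-fold for counts and the counting interval for shares. The gamma share stayed between 99.4% and 99.5% under 4 alternatives. The alpha share was 0.190% without the highest member of each cluster, against 0.265%. The beta share was 0.201% with means per unshared exon length, against 0.322%, as longer unshared sequence lowers the beta values by construction. With a minimum mean of 100, 2 members passed, against 19 at 10. Above the median of all rows lay 6 members, all gamma genes, but 1 member lay above the median of protein coding rows and 1 above that of rows with a mean of at least 1, because both medians are higher. With a mean under 0.5 in place of 1, chosen after seeing the data, 8 of 11 low members had all reads in 1 library. No paired analysis was possible because the values are means over all libraries. For the same reason the alternatives for the genotype difference, other size factors, no filter on low counts, leaving out lines and the replicate block, were not run. Depth limits the alpha and beta values, most of which rest on 1 to 12 reads.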
